A study of Mus musculus with 9 samples.

Results

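Phosphatidylcholine and phosphatidylethanolamine are the main phospholipids of liver membranes, and phosphatidylcholine also coats lipoproteins and lipid droplets and is secreted into bile. The genes examined were 10 enzymes of their synthesis and remodelling, Chka, Chkb, Pcyt1a, Etnk1, Etnk2, Pcyt2, Cept1, Pemt, Ptdss2 and Lpcat3. The members were all probe sets that the platform annotation pairs with exactly 1 of these symbols. In total, 9 of the 10 genes were found among 17514 genes with such probe sets, on 26 of the 41782 probe sets tested. Etnk2 was not analysed here, and 1 further probe set that carries Chkb together with other symbols was left out.

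Liver RNA of c57Bl/6 mice was hybridised to Affymetrix GeneChip arrays after a high-fat diet (HFD, 5 arrays, 21% fat by the label, with 42% of calories from fat) or a control diet (control, 4 arrays). All mice ate chow before the study, and the labels do not describe the control diet further, nor do they state sex, age, weeks of feeding or batch. They do not say whether each array is a separate animal, so p-values measure only the variation among these arrays, and that variation may be technical. Each value is the log2 distance of an array from the baseline of its probe set, which shows differences between groups but no level, so that neither the abundance of these transcripts nor the presence of hepatocyte markers could be read.

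In hepatocytes phosphatidylcholine is made along the CDP-choline route, in which choline is phosphorylated, activated to CDP-choline and joined to diacylglycerol, and also by triple methylation of phosphatidylethanolamine, a reaction largely particular to the liver. Phosphatidylethanolamine is made along the parallel CDP-ethanolamine route and from phosphatidylserine in mitochondria. Base exchange links these lipids to phosphatidylserine, and lysophospholipid acyltransferases then exchange their fatty acids.

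A difference is the HFD mean minus the control mean in log2 units, given ± its standard error (SE), and a probe set passed when limma's adjusted p was under 0.05 over all 41782 probe sets. A single member probe set passed. It belongs to Pcyt1a and was higher in HFD, so that 1 of 26 member probe sets was called higher (3.85%), where 2.04% of all probe sets were called higher. None was called lower, where 1.23% of all probe sets were called lower. At an unadjusted p under 0.05, 5 member probe sets lay higher and 1 lower, which together is 23.1% of the members and compares with 16.4% of all probe sets. The median difference of the 26 probe sets was 0.01, and that of all probe sets was -0.01. Arrays of the groups did not overlap, with HFD higher, in 2 member probe sets (7.69%), against 4.50% of all probe sets, and in no member with HFD lower, against 3.50% of all.

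HFD replicate 5 stood apart from the other arrays in spread. The SD of its values over all probe sets was 0.335, against 0.221 to 0.267 in the other 8 arrays. It was the lowest or the highest of the 9 arrays in 34.8% of all probe sets and in 15 of the 26 members, the lowest in 10 and the highest in 5. Among marker lists, hepatocyte genes had 1 of 21 probe sets called (Hnf4a, lower in HFD), with 14 differences negative and 7 positive. These differences ran from -0.91 to 0.59, and 6 had an unadjusted p under 0.05. The mean of the hepatocyte list per array was -0.17 to 0.01 in HFD and -0.01 to 0.21 in control. Endothelial genes had 4 of 17 probe sets called lower, and all 17 had a negative difference, with a median of -0.82 and 14 at an unadjusted p under 0.05. Neutrophil genes had 1 of 5 called lower (S100a9), all 5 with a negative difference and 4 at an unadjusted p under 0.05. Stellate genes had 1 of 19 called higher (Lrat), with 12 positive and 7 negative differences and 5 at an unadjusted p under 0.05. Adipocyte genes had 1 of 8 called higher (Cidec), all 8 with a positive difference and 3 at an unadjusted p under 0.05. Of 7 biliary and 9 T and B cell probe sets none passed in limma, with 0 and 1 at an unadjusted p under 0.05. Of 16 probe sets of SREBP2 targets, the genes of sterol synthesis and uptake, 12 were lower. These counts compare with 2.04% of all probe sets called higher, 1.23% called lower and 16.4% at an unadjusted p under 0.05.

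**Figure D1:**
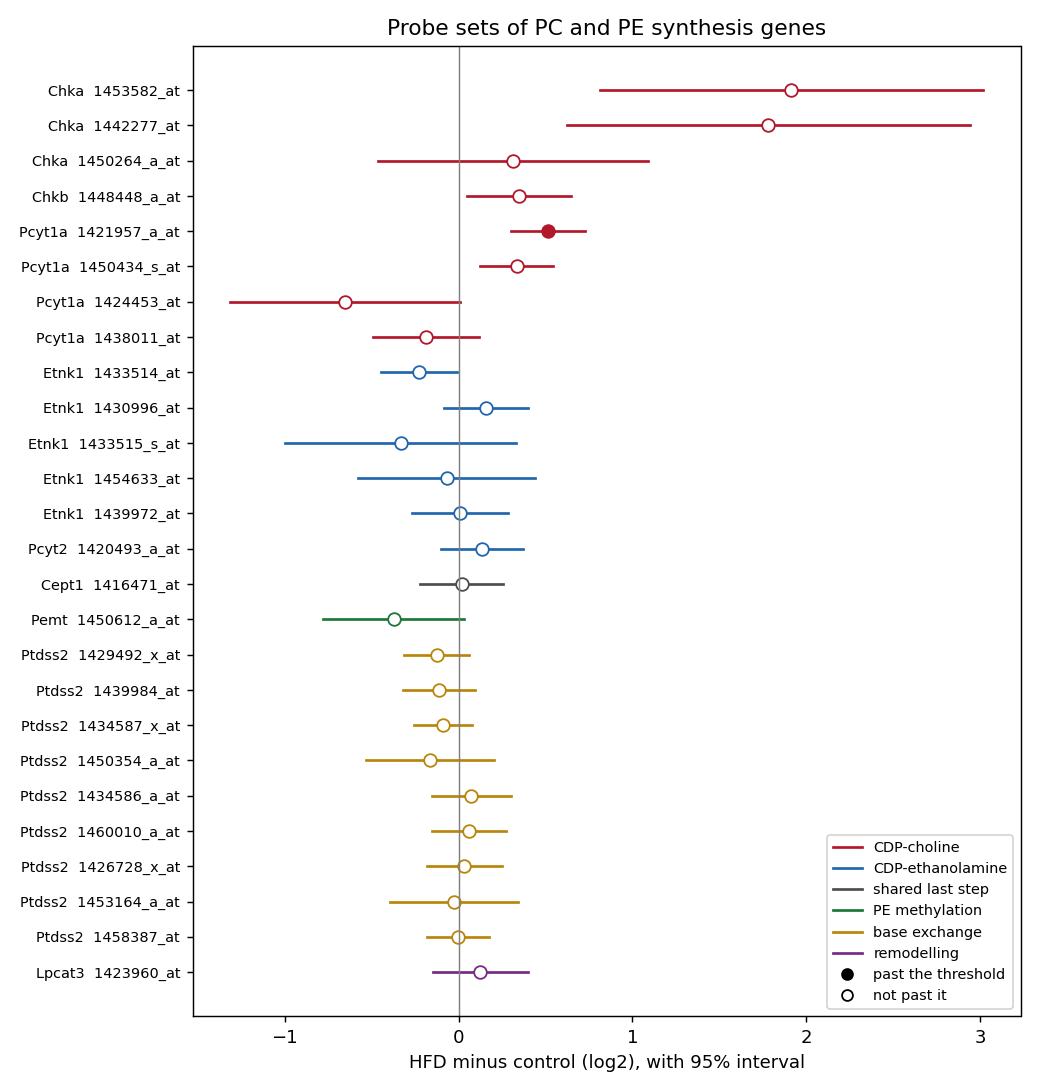
Difference between HFD and control (x axis, log2) for each of the 26 member probe sets, ordered down the page and coloured by route. Points are estimates from limma, lines are 95% intervals, and a filled point is past the threshold. The filled point is Pcyt1a 1421957_a_at at 0.51. The widest departures are those of Chka at 1.91 and 1.78, with intervals of more than 2 log2 units.

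The CDP-choline route held the members that lay farthest from 0. Its 3 genes have 8 probe sets, 6 with a positive difference, of which 1 passed, and 2 with a negative difference. The median difference over the 8 was 0.34.

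The start windows of 3 genes of this route are shown because they hold the largest member difference (Chka), the only member past the threshold (Pcyt1a) and the gene of the last step that passed most clearly (Chpt1, described below). Each is 300 bases from RefSeq on build GRCm38.p6, from 250 bases before to 50 bases after an annotated start, printed 5′ to 3′ along the gene. Capitals mark matches on either strand to the GC box GGGCGG, the CCAAT box CCAAT, the E-box CACGTG or TCACNCCAC, the core of the sterol regulatory element.
Chka, chr19:3851523-3851822, plus strand: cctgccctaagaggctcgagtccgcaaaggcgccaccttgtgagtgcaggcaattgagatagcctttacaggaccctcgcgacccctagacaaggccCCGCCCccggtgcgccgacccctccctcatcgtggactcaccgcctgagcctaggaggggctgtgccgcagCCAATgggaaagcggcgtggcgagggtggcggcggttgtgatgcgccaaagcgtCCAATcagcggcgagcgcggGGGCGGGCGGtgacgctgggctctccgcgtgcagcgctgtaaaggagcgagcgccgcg
Pcyt1a, chr16:32430671-32430970, plus strand, the most upstream of 3 annotated windows: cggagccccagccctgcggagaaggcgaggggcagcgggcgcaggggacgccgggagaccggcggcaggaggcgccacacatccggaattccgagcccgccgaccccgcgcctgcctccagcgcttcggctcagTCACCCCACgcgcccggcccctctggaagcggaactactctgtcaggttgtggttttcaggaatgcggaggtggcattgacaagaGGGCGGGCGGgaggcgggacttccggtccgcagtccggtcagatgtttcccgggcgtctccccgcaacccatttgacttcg
Chpt1, chr10:88503921-88504220, minus strand: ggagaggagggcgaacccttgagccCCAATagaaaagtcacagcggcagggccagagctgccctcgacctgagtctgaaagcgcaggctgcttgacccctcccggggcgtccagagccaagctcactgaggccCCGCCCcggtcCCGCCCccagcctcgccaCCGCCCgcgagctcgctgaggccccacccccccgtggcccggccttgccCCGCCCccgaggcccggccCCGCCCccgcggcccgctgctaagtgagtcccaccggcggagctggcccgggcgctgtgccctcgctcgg

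GC boxes were found 3 times for Chka (2 overlapping each other), 2 times for Pcyt1a (overlapping each other) and 5 times for Chpt1. Of all 32851 such windows 35.7% hold at least 1. That share is not matched for base content. G and C make up 68.7% of the Chka window, 69.7% of that of Pcyt1a and 75.3% of that of Chpt1, against a median of 52.7% over all windows. CCAAT boxes were found 2 times for Chka and 1 time for Chpt1, and 37.4% of all windows hold one. The sterol core was matched once, in Pcyt1a from base 135 of the window, and 1.24% of all windows hold a match. No E-box was matched in these windows (7.15% of all windows hold one). A match describes letters only, and binding was not measured here.

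Choline kinase opens the route by phosphorylating choline. For Chka, which encodes the choline kinase alpha isoform, probe set 1453582_at stood at -0.17, 1.57, 2.27, 1.18 and 0.80 in HFD replicates 1 to 5, against 0.17, -0.21, -1.83 and -1.26 in control replicates 1 to 4. HFD replicates 2 to 5 lay above every control, and HFD replicate 1 lay among the controls. The difference was 1.91 ± 0.50 (3.77-fold, 95% interval 1.76-fold to 8.08-fold), which did not pass (adjusted p = 0.0688, exact permutation p = 0.0238). With 1 array left out it ran from 1.56 (without control replicate 3, adjusted p = 0.181) to 2.24 (without HFD replicate 1, adjusted p = 0.0297), and of these 9 fits only the one without HFD replicate 1 passed.

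Probe set 1442277_at of Chka followed a like order. Its values were -0.0036, 1.62, 1.89, 0.73 and 0.0036 in HFD replicates 1 to 5, against 0.27, -0.45, -1.41 and -2.14 in control replicates 1 to 4. Here control replicate 1 lay above HFD replicates 1 and 5. The difference was 1.78 ± 0.53 and did not pass (adjusted p = 0.105). With 1 array left out it ran from 1.38 (without control replicate 4, adjusted p = 0.243) to 2.18 (without control replicate 1, adjusted p = 0.0615) and never passed. When HFD replicate 5 was dropped along with control replicate 1, it was 2.39 and passed (adjusted p = 0.0395), while 1453582_at did not (adjusted p = 0.0612).

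The third Chka probe set, 1450264_a_at, did not share the size of these differences. It ranged from -0.58 to 0.65 in HFD and from -1.14 to 0.68 in control, so that the groups overlapped throughout. Its difference was 0.31 ± 0.35 (95% interval -0.46 to 1.09, adjusted p = 0.725). Chka thus had probe sets with differences between 0.31 and 1.91, and their mean per array gave 1.34 ± 0.44 (adjusted p = 0.116). The controls alone spanned 2.42 log2 units at 1442277_at.

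Chkb encodes the beta isoform of choline kinase, which can also phosphorylate ethanolamine. Its 1 probe set, 1448448_a_at, had -0.08, 0.03, 0.50, 0.33 and 0.52 in HFD replicates 1 to 5, against 0.06, -0.26, -0.11 and -0.03 in control replicates 1 to 4. HFD replicates 3, 4 and 5 lay above all controls and HFD replicates 1 and 2 among them. The difference of 0.35 ± 0.14 was not past the threshold (adjusted p = 0.223), and it was 0.28 without HFD replicate 5.

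Pcyt1a encodes the alpha isoform of the enzyme that turns phosphocholine into CDP-choline, the rate-limiting step of the route, and its 4 probe sets differed in sign. Probe set 1421957_a_at, annotated to NM_009981, had 0.15, 0.22, 0.16, 0.18 and 0.43 in HFD replicates 1 to 5, against -0.32, -0.51, -0.15 and -0.18 in control replicates 1 to 4. Every HFD array lay above every control. Means were 0.23 ± 0.12 (SD, n = 5) in HFD and -0.29 ± 0.16 (SD, n = 4) in control, a difference of 0.51 ± 0.10 (1.43-fold, adjusted p = 0.0172 in limma, exact permutation p = 0.00794, the smallest that 126 splits allow). The call held without HFD replicate 5, at 0.46 ± 0.09 (adjusted p = 0.026). It ended without control replicate 2 (0.44, adjusted p = 0.0564) and when HFD replicate 5 was dropped along with control replicate 1 (0.45, adjusted p = 0.0568).

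Probe set 1450434_s_at, annotated to the same transcript, had 0.05, 0.05, 0.08, 0.27 and 0.33 in HFD, against -0.36, -0.23, -0.09 and -0.05 in control. Its groups did not overlap either. The difference of 0.33 ± 0.10 missed the threshold (adjusted p = 0.0932, exact permutation p = 0.00794).

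The remaining Pcyt1a probe sets had differences of the opposite sign. For 1424453_at, annotated to BC018313, values were -0.04, 0.13, -0.72, -0.01 and -1.51 in HFD replicates 1 to 5, against 0.51, 0.31, 0.01 and 0.05 in control replicates 1 to 4. HFD replicates 3 and 5 lay far below the rest, and the others ranged among or close to the controls. The difference was -0.65 ± 0.30 (95% interval -1.31 to 0.01, adjusted p = 0.313), and without HFD replicate 5 it was -0.38 ± 0.18 (adjusted p = 0.348). Probe set 1438011_at, annotated to BB280291, had a difference of -0.19 ± 0.14 (adjusted p = 0.565), with HFD replicate 5 at -0.53 and the other HFD arrays between -0.03 and 0.08, and -0.08 without HFD replicate 5.

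The direction for Pcyt1a thus depends on the probe set. Averaged over the 4 probe sets the difference was 0.0027 ± 0.09 (adjusted p = 0.992), and the probe set with the largest SD gave -0.65 (adjusted p = 0.28). The annotation gives no position of the probe sets along the transcript, so which part of the mRNA each measures was not tested.

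**Figure D2:**
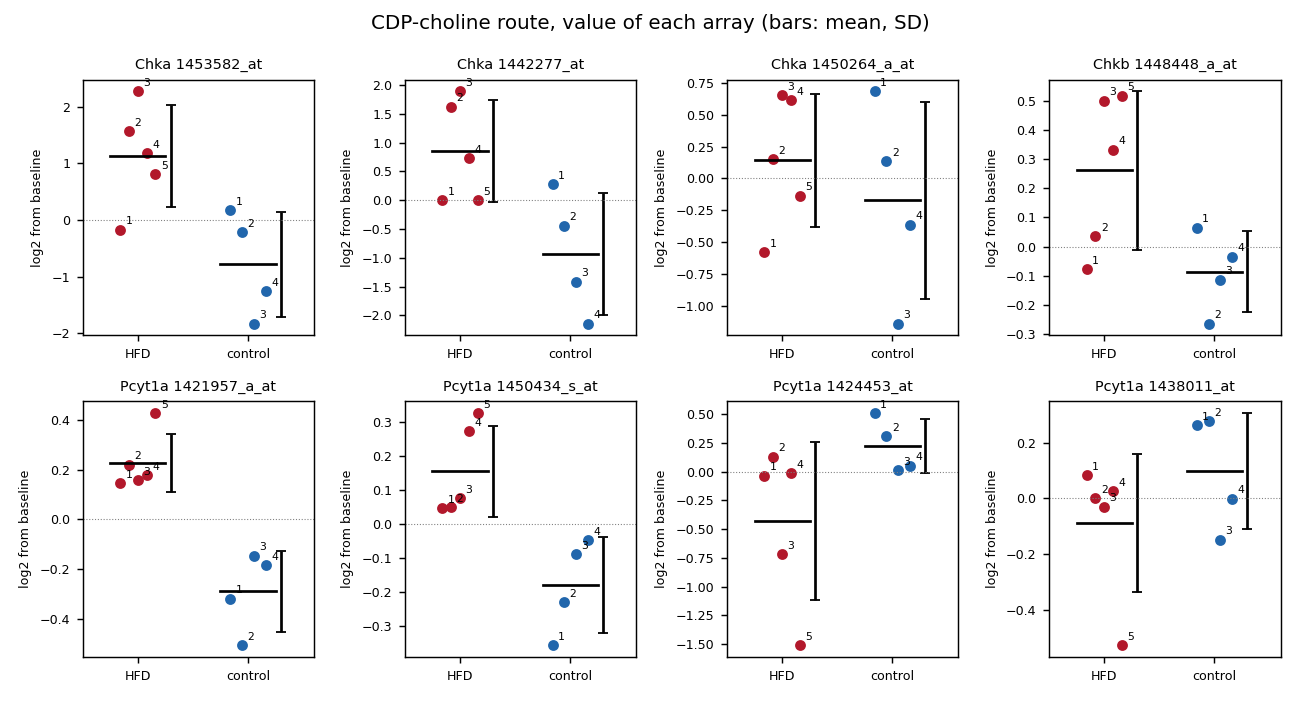
Values of each array (y axis, log2 from the baseline of the probe set, scaled per panel) for the 8 probe sets of Chka, Chkb and Pcyt1a, with HFD in red and control in blue. Numbers are replicates, horizontal bars are means and error bars are SD (n = 5 and n = 4). Groups are separate in the 1421957_a_at and 1450434_s_at panels, and HFD replicate 5 is at -1.51 in the 1424453_at panel.

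Across all named probe sets of other genes, those whose values over the 9 arrays ran most like Pcyt1a 1421957_a_at were Lemd3, Fmo5 and Insig2, each with a Pearson r of 0.97. These arrays share the group difference, and HFD minus control was 0.38, 0.76 and 1.08 for these genes in that order. With group means removed the nearest were Marf1 (r = 0.98), Klf15 (0.95) and Chst5 (0.95). These values describe 9 arrays searched over all named probe sets.

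In the CDP-ethanolamine route none of 6 probe sets passed in limma, and 1 had an unadjusted p under 0.05. Etnk1 encodes an ethanolamine kinase, the opening step, and has 5 probe sets with differences between -0.33 and 0.16. The lowest p was that of 1433514_at, at 0.11, -0.0053, -0.07, -0.10 and -0.24 in HFD replicates 1 to 5, against 0.11, 0.39, 0.0053 and 0.15 in control replicates 1 to 4. Most HFD arrays lay below the controls, but HFD replicate 1 lay within their range. The difference was -0.23 ± 0.10 (adjusted p = 0.284).

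The Etnk1 probe set of largest difference, 1433515_s_at, rested on few arrays. It stood at 0.06, 0.31, -0.61, 0.18 and -1.32 in HFD replicates 1 to 5, against 0.23, 0.31, -0.06 and -0.25 in control replicates 1 to 4. HFD replicates 3 and 5 were the lowest of the 9 arrays, as at Pcyt1a 1424453_at. The difference of -0.33 ± 0.30 (adjusted p = 0.649) was -0.07 without HFD replicate 5. The other 3 Etnk1 probe sets, 1430996_at, 1454633_at and 1439972_at, had differences of 0.16, -0.07 and 0.01.

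Pcyt2 encodes the enzyme that turns phosphoethanolamine into CDP-ethanolamine. On 1420493_a_at it had 0.0078, -0.0078, 0.35, -0.06 and 0.36 in HFD replicates 1 to 5, against 0.07, -0.01, -0.09 and 0.01 in control replicates 1 to 4. HFD replicates 3 and 5 lay above all other arrays, which overlapped. The difference was 0.14 ± 0.11 (95% interval -0.10 to 0.37, adjusted p = 0.587), and 0.078 without HFD replicate 5.

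Cept1 encodes the choline/ethanolamine phosphotransferase that can complete both routes. Its probe set 1416471_at had 0.19, 0.16, -0.06, 0.22 and -0.23 in HFD replicates 1 to 5, against 0.20, -0.05, 0.0074 and -0.0074 in control replicates 1 to 4. The groups overlapped throughout. The difference was 0.02 ± 0.11 (adjusted p = 0.959), with a 95% interval of -0.22 to 0.26, that is 0.859-fold to 1.19-fold. Without HFD replicate 5 it was 0.090.

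Pemt, the phosphatidylethanolamine N-methyltransferase that turns phosphatidylethanolamine into phosphatidylcholine, had 1 probe set. On 1450612_a_at its values were -0.02, 0.02, -0.42, 0.06 and -0.78 in HFD replicates 1 to 5, against 0.48, 0.18, 0.02 and -0.08 in control replicates 1 to 4. HFD replicates 3 and 5 again lay below every control, and HFD replicates 1, 2 and 4 lay among them. The difference was -0.37 ± 0.18 (95% interval -0.78 to 0.03), which did not pass (adjusted p = 0.347, exact permutation p = 0.159), and it was -0.23 without HFD replicate 5 (adjusted p = 0.473).

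Methylation by Pemt is known to be stronger in hepatocytes around the central vein. Of 14 probe sets of 8 pericentral genes 2 were higher in HFD (Rhbg and Lgr5) and 1 lower (Cyp1a2), with a median difference of 0.25. In all, 11 had a positive difference and 6 an unadjusted p under 0.05. Their mean per array was -0.07 to 0.15 in HFD and -0.14 to -0.07 in control. Of 9 probe sets of 6 periportal genes 1 was lower (Cdh1), with a median of -0.26. Here 8 had a negative difference and 5 an unadjusted p under 0.05. The mean per array was -0.58 to 0.02 in HFD and 0.19 to 0.35 in control. For comparison, 2.04% of all probe sets were called higher and 1.23% lower, and 16.4% had an unadjusted p under 0.05. The part of these zonal genes in the value of Pemt was not tested.

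Ptdss2 encodes phosphatidylserine synthase 2, which exchanges the ethanolamine of phosphatidylethanolamine for serine. None of its 9 probe sets passed in limma, none had an unadjusted p under 0.05, and their differences ran from -0.16 to 0.07 with a median of -0.02. Over the 9 the 95% intervals reached from -0.53 to 0.34. The probe set annotated to NM_013782, 1450354_a_at, had 0.40, -0.16, -0.16, 0.24 and -0.33 in HFD replicates 1 to 5, against 0.14, 0.50, -0.14 and 0.14 in control replicates 1 to 4, with the groups overlapping.

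Lpcat3 encodes the lysophospholipid acyltransferase that places polyunsaturated fatty acids on phosphatidylcholine, and it is known as a target of the nuclear receptor LXR. On 1423960_at it had -0.0058, 0.22, 0.11, 0.48 and -0.18 in HFD replicates 1 to 5, against 0.16, -0.08, 0.0058 and -0.10 in control replicates 1 to 4. HFD replicates 2 and 4 lay above all controls and HFD replicate 5 below them. The difference was 0.13 ± 0.12 (adjusted p = 0.682, 95% interval -0.15 to 0.40). It was 0.037 without HFD replicate 4 and 0.20 without HFD replicate 5. Of 16 probe sets of 10 other LXR targets 4 were higher in HFD (Abcg5, Abcg8, Srebf1 and Scd1) and none lower. The median over the 16 was 0.01, with 9 differences positive and 7 negative, between -1.25 and 1.99. An unadjusted p under 0.05 was found for 8 of them. Among all probe sets 2.04% were called higher and 1.23% lower, and 16.4% had such a p-value.

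**Figure D3:**
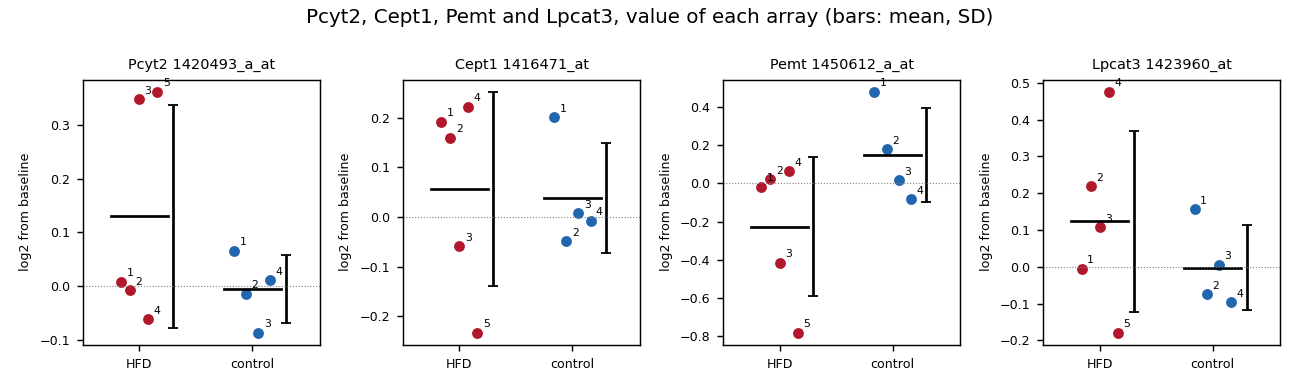
Values of each array (y axis, log2 from baseline, scaled per panel) for Pcyt2, Cept1, Pemt and Lpcat3, with HFD in red left of control in blue. Numbers are replicates, horizontal bars are means and error bars are SD (n = 5 and n = 4). The groups overlap in all 4 panels, and HFD replicates 3 and 5 are the lowest in the Pemt panel, at -0.42 and -0.78.

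Other genes of the same pathway were examined as a list with 10 measured genes on 26 probe sets. In this list 4 probe sets were higher and 1 was lower, with a median difference of 0.04. Among all probe sets 2.04% were called higher and 1.23% lower. Unadjusted p-values under 0.05 numbered 9 of 26 in this list, against 16.4% of all probe sets. Of the 4 called higher, 3 belonged to Chpt1, the cholinephosphotransferase that performs the last step of the CDP-choline route alone. Chpt1 1455901_at had 0.51, 0.54, 0.39, 0.32 and 0.44 in HFD replicates 1 to 5, against -0.58, -0.71, -0.66 and -0.32 in control replicates 1 to 4. The groups were separated by 0.65 log2 units. The difference was 1.01 ± 0.09 (2.02-fold, adjusted p = 0.000515), and it was 1.01 without HFD replicate 5.

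Chpt1 1435870_at rose by 1.02 ± 0.11 (adjusted p = 0.0013) and 1435446_a_at by 0.65 ± 0.15 (adjusted p = 0.0454). At 1435446_a_at the groups were separated by only 0.0040 log2 units, between HFD replicate 5 and control replicate 1. The call of 1435446_a_at ended in 8 of the 9 fits that left out 1 array (highest adjusted p = 0.139). The fourth probe set, 1426146_a_at, did not pass at 0.42 ± 0.33 (adjusted p = 0.583). There HFD replicates 1, 2 and 4 stood between 0.81 and 0.91, HFD replicate 3 at 0.06 and HFD replicate 5 at -0.90, against -0.29 to 0.08 in control. Without HFD replicate 5 its difference was 0.73 (adjusted p = 0.0574).

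Both Chpt1 and Cept1 can complete phosphatidylcholine synthesis. The 95% interval of the difference was 0.81 to 1.22 at Chpt1 1455901_at and -0.22 to 0.26 at the probe set of Cept1. The interval of Chpt1 1426146_a_at, -0.30 to 1.15, holds the whole interval of Cept1, and the difference between the genes was not tested. Selenoi, another gene of the same list, had no call. Its probe set 1435797_at had groups that did not overlap, at 0.41 ± 0.10 (adjusted p = 0.0595). Its other probe sets stood at 0.33 (1442069_at), 0.27 (1431802_a_at) and -0.17 (1432374_a_at).

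Ptdss1, which encodes the phosphatidylserine synthase that uses phosphatidylcholine, passed on 1441866_s_at. It had 0.06, 0.05, 0.10, -0.05 and 0.23 in HFD replicates 1 to 5, against -0.21, -0.44, -0.25 and -0.43 in control replicates 1 to 4, with no overlap. The rise was 0.41 ± 0.08 (adjusted p = 0.0268), and the call ended without any 1 of control replicates 2, 3 and 4 or HFD replicates 2 and 3 (highest adjusted p = 0.0958). With the probe sets of Ptdss1 averaged the difference was 0.22 (adjusted p = 0.126).

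Lpcat2, a lysophospholipid acyltransferase prominent in inflammatory cells, was the list's lower member. Probe set 1434945_at had -0.17, -0.19, -0.08, -0.09 and -0.34 in HFD replicates 1 to 5, against 0.44, 0.35, 0.08 and 0.11 in control replicates 1 to 4. It fell by 0.42 ± 0.10 (adjusted p = 0.0424), and the call ended when any 1 array was left out (highest adjusted p = 0.134). The other Lpcat2 probe set, 1440684_at, was at -0.07 (adjusted p = 0.814), and with both averaged the difference was -0.25 (adjusted p = 0.148). Kupffer cells are the macrophages that reside in the liver. Of 18 probe sets of 13 genes that mark them 12 were lower in HFD, where 1.23% of all probe sets were called lower. None was higher, where 2.04% of all were called higher. The mean of these 18 probe sets ranged from -1.19 to 0.09 over HFD arrays and from 0.12 to 1.21 over control arrays. In bulk liver fewer cells of a type and less RNA per cell cannot be told apart, and the part of Kupffer cells in the value of Lpcat2 was not tested.

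**Figure D4:**
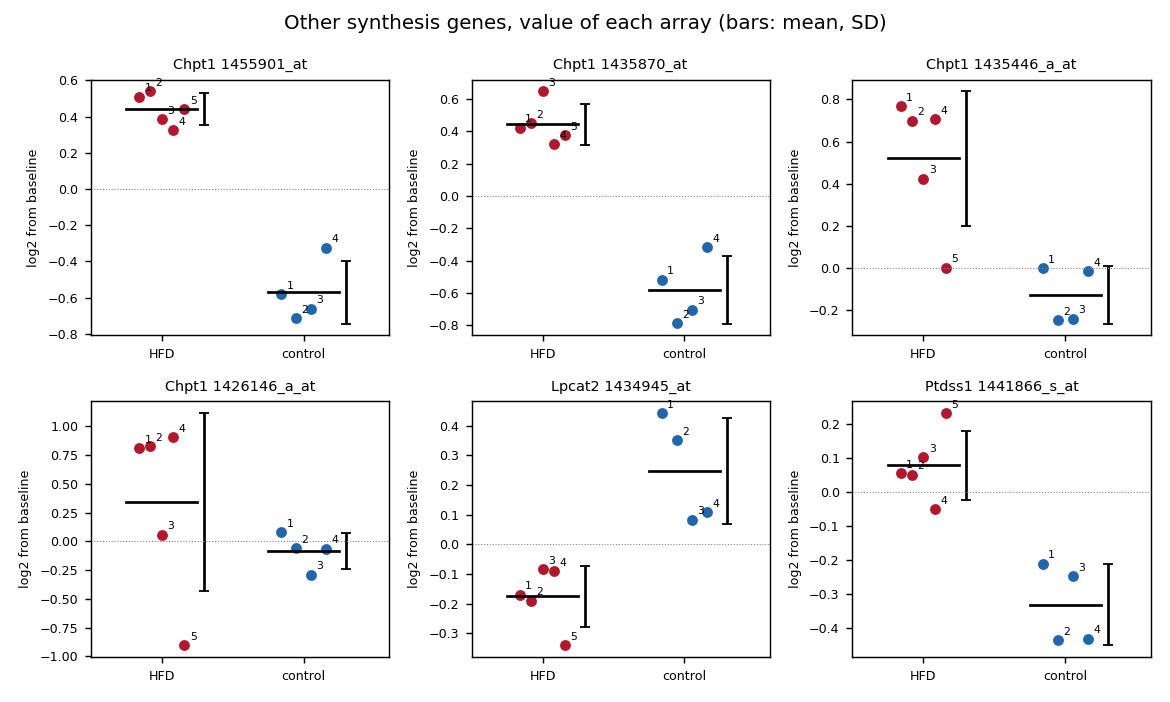
Values of each array (y axis, log2 from baseline, scaled per panel) for all 4 probe sets of Chpt1 and for the probe sets of Lpcat2 and Ptdss1 past the threshold, with HFD in red left of control in blue. Numbers are replicates, horizontal bars are means and error bars are SD (n = 5 and n = 4). HFD arrays lie above control in 3 Chpt1 panels and in the Ptdss1 panel, and below it in the Lpcat2 panel. In the 1435446_a_at panel the gap between groups is only 0.0040 log2 units. HFD replicate 5 is at -0.90 in the remaining Chpt1 panel.

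Of 17 probe sets of 12 genes for the supply and use of choline and methyl groups, 1 was higher in HFD and none lower. It belonged to Gamt, which uses S-adenosylmethionine to make creatine, at 0.32 ± 0.08 (adjusted p = 0.0496), and the call ended in 8 of the 9 fits that left out 1 array. Of 31 probe sets of 17 genes of breakdown and transfer, 1 was higher and none lower. It belonged to Abcb4, the transporter that moves phosphatidylcholine into bile, which had 0.15, 0.14, 0.48, 0.32 and 0.32 in HFD replicates 1 to 5, against -0.44, -0.14, -0.20 and -0.20 in control replicates 1 to 4. The groups did not overlap, and the rise was 0.53 ± 0.10 (adjusted p = 0.0159). The call held when any 1 array was left out and ended when HFD replicate 5 was dropped along with control replicate 1 (adjusted p = 0.0588). It also ended in an unmoderated linear model (adjusted p = 0.0594), at an adjusted p under 0.01 and at a change of at least 1.5-fold. Unadjusted p-values under 0.05 numbered 4 of 17 in the choline and methyl list and 9 of 31 in the breakdown list. Among all probe sets 16.4% had such a p-value and 2.04% were called higher.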

How the data were processed

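The deposited log2 values were made by the authors with RMA and quantile normalization, then shifted to a median baseline for each probe set, per the series' design text and the labels. A median over these 9 arrays would leave the middle array at 0. In 92.8% of probe sets a pair of middle arrays instead lay equally far above and below 0. The baseline of those probe sets was thus not the median of these 9 arrays, and its source was not tested. The log base, genome build and scan batch are not given in the sources used here, and log2 was taken from RMA's usual output. Of 41842 probe sets 60 controls were left out. The annotation paired 32801 of the rest with 1 symbol, 862 with several and 8119 with none. The Entrez IDs of all 9 member genes were found in the RefSeq gene table, with 0 symbols changed.

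The 2 diets were compared in R 4.3.3 with limma 3.58.1, using lmFit and then eBayes with no trend and no covariate. Tests were two-sided with Benjamini-Hochberg adjustment over 41782 probe sets. Each probe set was kept on its own because those of a gene can differ. Exact permutation tests used the mean difference over all 126 splits, two-sided by absolute size. The fit was run on simulated data whose normal noise had, for each probe set, the same SD on every array. That setting leaves out the wider spread of HFD replicate 5, and no result here rests on it. Members and lists were chosen with earlier results of these data known. From each pathway list the genes past the threshold were named (at most 6, by lowest p). Chpt1's remaining probe set and Selenoi, which had no call, were given in addition. From the lists of cell markers and LXR targets genes past the threshold were named without further values, except in the endothelial and Kupffer cell lists. In those lists, and in that of SREBP2 targets, called probe sets were counted and their genes not named. Alternatives were 2 scalings, a filter on SD, 3 variance models, 2 gene-level summaries, leaving out _x_at and _s_at probe sets, 2 thresholds, dropping each array in turn, and dropping HFD replicate 5 along with control replicate 1. The number of arrays limits the precision.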

Additional observations from a re-analysis of the deposited data

Results flagged for a closer look

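Among the 52 sets of values that 26 probe sets and 2 groups give, 3 held an array far from the others of its group by Dixon's ratio, where chance alone marks about 1 in 20. In Pcyt1a 1421957_a_at HFD replicate 5 was highest at 0.43, with the next HFD array at 0.22. In Pcyt1a 1438011_at the same array was lowest at -0.53, with the next at -0.03. HFD replicate 5 was thus the highest HFD array on one Pcyt1a probe set and the lowest on another, and the part of its wider spread in this was not tested. In Ptdss2 1439984_at control replicate 3 was highest at 0.17, with the next control at 0.0030.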

How the results depend on the processing

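No setting called a member lower. The count of members called higher, 1 in the fit reported, was 2 without the 25% of probe sets of smallest SD (Chka 1453582_at joined, adjusted p = 0.0346), and 0 in an unmoderated linear model, with the largest-SD probe set of each gene, with probe sets averaged, at an adjusted p under 0.01 and at a change of at least 1.5-fold. It ran from 0 (without control replicate 2) to 2 (without HFD replicate 1) when 1 array was left out. The count over all probe sets, 1363, was 427 in the unmoderated model, 905 genes with probe sets averaged, 369 at 0.01 and 849 at 1.5-fold, and 546 to 1481 with 1 array left out. Pcyt1a stood at -0.65 with the largest-SD probe set. Signs also turned for probe sets with no call in either fit. After a further quantile normalization Etnk1 1439972_at was -0.014 and Ptdss2 1453164_a_at 0.023. Under array weights these were -0.027 and 0.031, and Etnk1 1454633_at was 0.0026. When HFD replicate 5 was dropped along with control replicate 1, the 3 values were -0.046, 0.173 and 0.175. With 1 array left out, Cept1 ran from -0.023 to 0.090, Chka 1450264_a_at from -0.0093 to 0.60, Etnk1 1439972_at from -0.041 to 0.090 and 1454633_at from -0.22 to 0.074, and Ptdss2 1426728_x_at from -0.023 to 0.084, 1453164_a_at from -0.10 to 0.12 and 1458387_at from -0.049 to 0.026. The cause of these shifts was not tested. Over single probe sets, gene-level fits aside, the alternatives gave the same side and sign in 548 values, lost a call in 56, gained one in 3 and turned the sign in 31. These counts pool the 26 members with the probe sets of Chpt1 and the other called ones of the pathway lists. Only 1 of the 26 members had a call that could be lost, so the 548 are mostly values with no call in either fit. The labels pair no arrays.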
